A study of Mus musculus with 2 samples.

Results

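S100a8, S100a9, Retnlg, Csf3r, Ngp, Camp and Lcn2 are 7 genes whose transcripts mark neutrophils, and they were taken by symbol from the 32245 gene symbols of the count matrices. They were chosen by their UMI counts in the same 2 libraries, where several had been seen as raised in CF-KI, so their own difference between the libraries is given as a description, with no test. Nuclei came from cardiac tissue of male C57Bl6/J mice, 3.5 months old, with 1 library per genotype. Both genotypes carried Tcf21-MerCreMer, a Cre recombinase that is switched on by tamoxifen in cells using the Tcf21 promoter, chiefly cardiac fibroblasts, and both received tamoxifen. CF-KI mice were Nlrp3-A350V/A350V, homozygous for an activated form of the inflammasome sensor NLRP3, and Control mice were Nlrp3-WT/WT. The labels state that the knock-in allele is silent in cells without Cre. The number of animals behind a library is not stated in the sources used here. A difference between the 2 libraries is therefore a difference between those libraries, and it has no replicate check.

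Of the 7 genes, S100a8, S100a9 and Retnlg had more unique molecular identifiers (UMIs, each standing for 1 captured RNA molecule) in CF-KI, by log2 ratios of 4.15 to 5.59. Lcn2 had a log2 ratio of 0.81 and Csf3r one of -0.79, and Ngp and Camp were at 0 to 2 UMIs in either library. A single CF-KI barcode held 313 of the 485 UMIs of the 7 genes. The name "raised in CF-KI" therefore did not hold for Csf3r, Ngp or Camp, and for Retnlg it rested on that barcode.

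The CF-KI library had 15077 barcodes and 21603653 UMIs, and the Control library had 11257 barcodes and 18040776 UMIs. The median depth was 1115 UMIs per barcode in CF-KI and 1158 in Control. The median mitochondrial share of a barcode was 14.2% in CF-KI and 3.46% in Control, and only 15.1% of CF-KI barcodes against 60.9% of Control barcodes had at most 5% mitochondrial UMIs. Levels below are UMIs per 1000000 non-mitochondrial UMIs of the library or class (CPM), with 95% Poisson intervals that cover counting error alone. Barcodes called as doublets made up 15.3% of CF-KI and 3.02% of Control barcodes with at least 200 genes, and 46 barcode sequences occurred in both libraries. Nlrp3, the gene of the knock-in allele, had 40 UMIs in CF-KI and 20 in Control, of which 6 and 0 lay in fibroblast-like nuclei, and the counts do not tell the alleles apart.

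Neutrophils are short-lived white blood cells made in the bone marrow that enter injured tissue within hours. They build their granules in a fixed order: precursor cells make the proteins of the primary granules, later stages make Ngp, Camp and Lcn2, and mature cells keep large amounts of S100a8, S100a9 and Retnlg RNA. S100a8 and S100a9 are calcium-binding proteins that form the heterodimer calprotectin, an alarmin that signals through TLR4 and RAGE. Retnlg is resistin-like gamma, a secreted protein of myeloid cells. Csf3r is the receptor for granulocyte colony-stimulating factor, which drives the making of neutrophils. Ngp (neutrophilic granule protein) and Camp (cathelicidin, an antimicrobial peptide precursor) belong to the secondary granules, and Lcn2 (lipocalin 2) binds bacterial siderophores and is also made by stressed epithelial and other cells. In the heart, neutrophils are best known as early arrivals after infarction, and S100a8 and S100a9 are among the RNAs that identify them in single-cell data.

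S100a8, S100a9 and Retnlg made up 303 of the 313 member UMIs of the single CF-KI barcode, and the bases upstream of these 3 genes are shown because their UMIs lay together in it. The genes are given on GRCm38 with GENCODE vM21 positions. S100a8 (ENSMUSG00000056054) spans chr3:90668978-90670035 on the plus strand and S100a9 (ENSMUSG00000056071) spans chr3:90692632-90695721 on the minus strand, so the pair are close neighbours. Retnlg (ENSMUSG00000022651) spans chr16:48872621-48874496 on the plus strand. The sequences are from RefSeq on GRCm38.p6 and end at the gene's start as RefSeq gives it, except for S100a8, where only the 157 bases before the outermost GENCODE start are shown. The S100a8 stretch is chr3:90668821-90668977 (plus strand), the S100a9 stretch chr3:90695722-90695971 (minus strand) and the Retnlg stretch chr16:48872358-48872607 (plus strand). Capitals mark matches, on either strand, to the C/EBP pattern TTNNGNAA or the PU.1 pattern GAGGAAG, for 2 factor families of myeloid cells.
S100a8 upstream: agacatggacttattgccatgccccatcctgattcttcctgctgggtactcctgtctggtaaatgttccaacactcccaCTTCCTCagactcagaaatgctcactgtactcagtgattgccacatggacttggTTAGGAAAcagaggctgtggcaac
S100a9 upstream: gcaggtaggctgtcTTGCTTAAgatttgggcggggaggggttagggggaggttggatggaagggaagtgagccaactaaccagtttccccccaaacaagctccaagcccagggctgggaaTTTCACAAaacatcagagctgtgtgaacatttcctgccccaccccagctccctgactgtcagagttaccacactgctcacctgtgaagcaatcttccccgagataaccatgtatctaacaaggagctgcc
Retnlg upstream: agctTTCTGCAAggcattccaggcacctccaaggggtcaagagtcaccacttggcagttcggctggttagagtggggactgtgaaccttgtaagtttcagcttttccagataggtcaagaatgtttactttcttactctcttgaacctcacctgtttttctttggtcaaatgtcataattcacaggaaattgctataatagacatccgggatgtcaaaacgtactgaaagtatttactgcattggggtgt
The C/EBP pattern occurred in 36.8% and the PU.1 pattern in 10.6% of 32851 mouse windows of 250 bases before a RefSeq start. S100a8 had 1 match to each, S100a9 had 2 to C/EBP and 0 to PU.1, and Retnlg had 1 to C/EBP and 0 to PU.1. In the same windows Ngp had 3 C/EBP matches and Lcn2 had 1, Csf3r and Camp had 0, and Csf3r and Lcn2 had 1 PU.1 match each. These matches describe the letters alone.

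S100a8 had 163 UMIs in CF-KI and 9 in Control, or 9.53 CPM (8.12 to 11.1) against 0.535 CPM (0.245 to 1.02). The log2 ratio of CF-KI over Control was 4.15 (95% counting interval 3.19 to 5.31). S100a9, its partner, had 196 and 4 UMIs, or 11.5 CPM (9.91 to 13.2) against 0.238 CPM (0.0648 to 0.609), with a log2 ratio of 5.59 (4.21 to 7.48). These intervals treat each UMI as independent, yet 1 barcode held 132 of the 163 S100a8 and 142 of the 196 S100a9 UMIs of CF-KI. The intervals are therefore too narrow for both calprotectin genes, and nothing is read from the gap between the libraries. Retnlg had 32 UMIs in CF-KI and 1 in Control, with a log2 ratio of 4.97 (2.39 to 10.32). The Control count of 1 makes this interval wide. It is still too narrow, since 29 of the 32 CF-KI UMIs lay in the same barcode.

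Csf3r, the growth factor receptor, went the other way, with 27 UMIs in CF-KI and 46 in Control. Its levels were 1.58 CPM (1.04 to 2.30) and 2.74 CPM (2.0 to 3.65), with a log2 ratio of -0.79 (-1.54 to -0.078). Lcn2 had 66 and 37 UMIs, or 3.86 CPM (2.98 to 4.91) and 2.20 CPM (1.55 to 3.03), with a log2 ratio of 0.81 (0.21 to 1.43). Scaled to all UMIs, mitochondrial ones included, the Lcn2 ratio was 0.57 (-0.027 to 1.20), an interval that held 0. The secondary granule genes Ngp and Camp were close to absent from both libraries. Ngp had 0 UMIs in CF-KI and 1 in Control, and Camp had 1 and 2, and the count of 0 in CF-KI has an exact upper limit of 0.216 CPM, where 3 UMIs equal 0.175 CPM. No ratio is given for these 2 genes, since all 4 counts were at or below 3 UMIs.

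Over all 7 genes the counts were 485 and 100 UMIs, with a log2 ratio of 2.25 (1.94 to 2.58). That interval is too narrow as well, since 313 of the 485 UMIs lay in 1 barcode. Of the 5 genes with at least 10 UMIs over both libraries, 3 were at least 2-fold higher in CF-KI and 0 at least 2-fold lower. Of all 17525 genes with that many UMIs, 4.21% were at least 2-fold higher and 7.02% at least 2-fold lower. The members' count was used to choose them, and nothing is read from it.

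**Figure D1:**
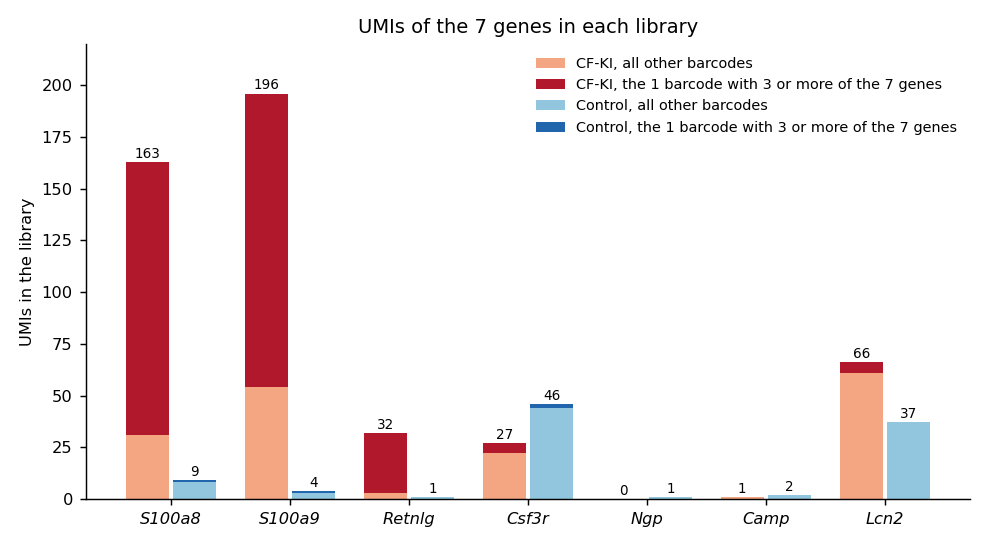
Bars give the UMIs (vertical axis) of each of the 7 genes in the CF-KI library (red) and the Control library (blue), with the dark part lying in the 1 barcode of that library that held 3 or more of the genes and the number of UMIs above each bar. The dark part makes up most of the CF-KI bars of S100a8 (132 of 163), S100a9 (142 of 196) and Retnlg (29 of 32), and little of Csf3r (5 of 27) or Lcn2 (5 of 66).

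In CF-KI, 14915 of 15077 barcodes held no UMI of the 7 genes, 160 held 1 of the genes, 1 held 2 and 1 held 5. In Control, 11175 of 11257 held none, 78 held 1, 3 held 2 and 1 held 3. The CF-KI barcode with 5 of the genes had 132 UMIs of S100a8, 142 of S100a9, 29 of Retnlg, 5 of Csf3r, 5 of Lcn2, and 0 of Ngp and Camp. Its 313 UMIs were 64.5% (exact binomial interval 60.1 to 68.8) of the member UMIs of the library, while it held 0.0130% of the non-mitochondrial UMIs. That interval treats the UMIs of 1 barcode as independent, so it is too narrow. The next CF-KI barcode by member UMIs had 4. The Control barcode with 3 of the genes held 1 UMI of S100a8, 1 of S100a9 and 2 of Csf3r, or 4 of the 100 member UMIs.

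The number of barcodes with a UMI was compared with that expected from depth. If the 163 S100a8 UMIs of CF-KI had fallen on barcodes in proportion to their depth, 162 barcodes would have held one, and 31 did. For S100a9 the numbers were 194 and 51, and for Retnlg 31.9 and 4. For Csf3r they were 27.0 and 21, and for Lcn2 65.8 and 59. In Control the 9 S100a8 UMIs lay in 9 barcodes and the 4 S100a9 UMIs in 4, with 1 barcode holding a UMI of both.

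**Figure D2:**
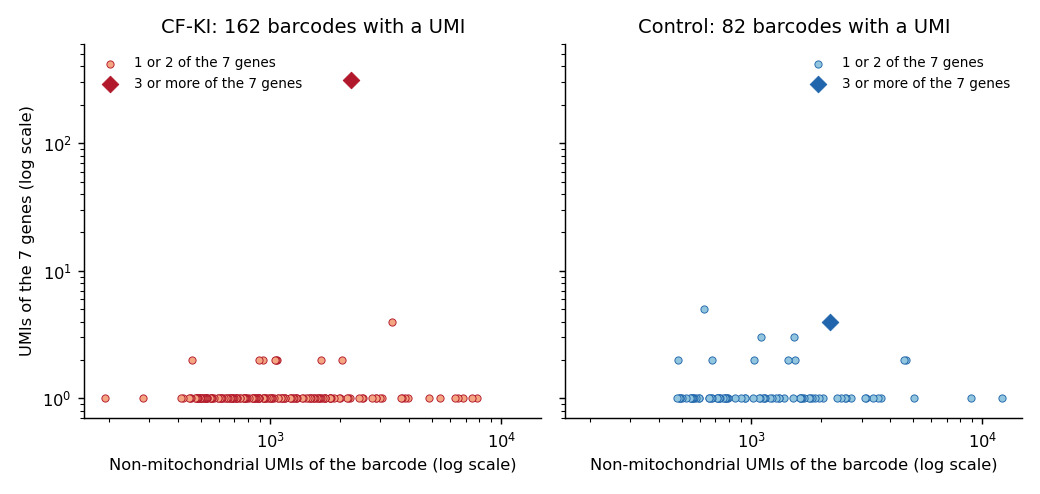
Each point is a barcode with at least 1 UMI of the 7 genes, with its non-mitochondrial UMIs on the horizontal axis and its UMIs of the 7 genes on the vertical axis (both log scales), CF-KI on the left and Control on the right, and diamonds for barcodes with 3 or more of the genes. In CF-KI 1 diamond stands at 313 UMIs and the other 161 barcodes have at most 4, while in Control no barcode has more than 5.

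The CF-KI barcode had 3242 UMIs, 31.2% of them mitochondrial, and 1105 genes. The 7 genes made up 14.0% (12.6 to 15.6) of its 2229 non-mitochondrial UMIs, and S100a9 and S100a8 were its 2 most counted nuclear genes. It carried 13 of the 42 other neutrophil genes looked for, where 1105 of all 32245 gene symbols had a UMI in it. Of the 9 neutrophil markers set for naming classes, only 2, Mmp9 and Cxcr2, were present, with 11 UMIs. The 13 genes are thus a minority of those looked for. Among the 13 were the collagenase gene Mmp9 with 6 UMIs, the chemokine receptor gene Cxcr2 with 5, Slpi and Wfdc21 with 4 each, and Lrg1 and Cd300ld with 3 each. The white blood cell genes Tyrobp (12 UMIs), Srgn (8), Cd52 (6) and Ptprc (5) were present, as was the cytokine gene Il1b (8). Ly6g, a surface marker of mature mouse neutrophils, had 0 UMIs in both libraries.

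Other classes left few UMIs in this barcode, with 1 exception. The 7 macrophage markers had 2 UMIs, the 6 monocyte markers 3, and the B cell, T cell and platelet markers 0. The 6 cardiomyocyte markers had 101 UMIs, of which Ttn gave 65 and Myh6 25. That was 4.53% of its non-mitochondrial UMIs, against 1.56% in the other macrophage-like nuclei of CF-KI and 2.45% of the whole library. The barcode was not called a doublet, and its sequence did not occur in Control. Clustering without the neutrophil genes put it among macrophage-like nuclei, and at a finer resolution in an unnamed cluster led by Ccl5, Gzma and Nkg7. A single barcode is too few to be named as a class.

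Genes besides the 7 that sat in the same barcode were few. Of 14689 other genes with at least 20 UMIs in CF-KI, 7 (0.0477%) had 5% or more of their UMIs in it and 2 (0.0136%) had 20% or more. Those 2 were Mmp9, with 6 of 21 UMIs (28.6%, exact binomial interval 11.3 to 52.2), and Il1b, with 8 of 30 (26.7%, 12.3 to 45.9). Among the next by this share were Trim30b (3 of 26 UMIs, 11.5%), Mirt1 (3 of 34, 8.82%), Dhrs9 (2 of 25, 8.0%) and Elovl7 (1 of 20, 5.0%). Padi4 and Cd300lb (1 of 21 and 4.76% each) and Ccr1 (3 of 65, 4.62%) came after them. Shares that rest on 1 to 3 UMIs say little about a gene. Among neutrophil genes with fewer UMIs, Wfdc21 had 4 of 6 UMIs there, Cxcr2 5 of 11 and Cebpe its 1 UMI. In Control, the barcode with 3 members held at most 4.76% of the UMIs of any of 15079 genes. The highest shares, each from 1 to 3 UMIs, were those of Gm17111, Mirt1, Lrrc4c, Peak1os, Ffar2, Ache, Mycn, Gm49864, Gm43376 and Slc15a3. That barcode also held the 1 Cxcr2 UMI of Control and 1 of the 3 Trem1 UMIs of Control.

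Barcodes were also picked without the 7 genes, by holding at least 3 of the other 42 neutrophil genes. There were 25 such barcodes in CF-KI and 29 in Control, or 16.6 (10.7 to 24.5) and 25.8 (17.3 to 37.0) per 10000 barcodes, and these intervals overlapped. Only 4 of them in each library held any of the 7 genes. They contained 319 of 485 member UMIs in CF-KI, 313 of which were those of the single barcode, and 13 of 100 in Control.

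With the barcodes of 3 or more members set aside, 172 member UMIs were left in CF-KI and 96 in Control, with a log2 ratio of 0.82 (0.45 to 1.19). S100a8 had 31 and 8 UMIs, with a log2 ratio of 1.93 (0.78 to 3.26). S100a9 had 54 and 3 UMIs, with a log2 ratio of 4.14 (2.52 to 6.47). The ratio of S100a8 was the smaller of the 2. Both genes were chosen from the counts of these libraries, so nothing is read from intervals above 0. Retnlg fell to 3 and 1 UMIs, which gives no ratio. The 5 members other than S100a8 and S100a9 had 87 UMIs in CF-KI and 85 in Control, with a log2 ratio of 0.0079 (-0.44 to 0.46). Of the 4 members that still had at least 10 UMIs, 2 were at least 2-fold higher and 1, Csf3r, at least 2-fold lower. Of 17523 genes the shares were 4.19% and 7.04%. The members were chosen from the counts of these libraries, so here too nothing is read from their number.

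The 85 S100a8 and S100a9 UMIs that remained in CF-KI were spread over 80 barcodes, 75 of them with 1 UMI, where 84.6 would hold one if spread by depth. No remaining barcode had more than 2. They occurred in most cell classes, named from their markers after clustering both libraries together. Fibroblast-like nuclei had 21 UMIs in CF-KI and 4 in Control, 6.46 CPM (4.0 to 9.87) and 0.968 CPM, with a log2 ratio of 2.74 (1.17 to 4.74). Cardiomyocyte-like nuclei had 19 and 2 UMIs, 3.55 CPM (2.14 to 5.54) and 0.324 CPM, with a log2 ratio of 3.45 (1.40 to 6.60). Endothelial-like nuclei had 11 and 0 UMIs. With Control set at the floor of 3 UMIs, the log2 ratio was 1.20, the lower end of the counting interval being 0.66.

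In smaller classes the intervals reached 0. Endocardial-like nuclei had 7 and 1 UMIs, with a log2 ratio of 2.94 (-0.024 to 8.43), and mesothelial-like nuclei 6 and 1, with a log2 ratio of 2.97 (-0.070 to 8.50). Macrophage-like nuclei had 3 and 2 UMIs and no ratio. With the single barcode kept in, macrophage-like nuclei of CF-KI had 277 UMIs in place of 3. No B cell-like, adipocyte-like or platelet-like nucleus had a UMI of either gene, but these classes were small. Their upper limits in CF-KI were 30.9, 24.7 and 56.3 CPM, above the 6.46 CPM of fibroblast-like nuclei, so a count of 0 does not show absence. Per 1000 nuclei of CF-KI, the classes with more UMIs held 5.65 (fibroblast-like), 4.47 (cardiomyocyte-like), 7.61 (endothelial-like), 5.06 (endocardial-like), 11.0 (mesothelial-like) and 5.79 (macrophage-like). In the same order the Control values were 1.12, 0.789, 0, 0.877, 1.52 and 2.04. In 2 of these classes most nuclei of CF-KI and of Control lay in different clusters: 2943 fibroblast-like nuclei of CF-KI were in a cluster with 151 of Control, and 2459 of Control in a cluster with 241 of CF-KI. Cardiomyocyte-like nuclei were split alike, whereas the endothelial-like, endocardial-like, mesothelial-like and macrophage-like nuclei of both libraries shared their clusters.

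**Figure D3:**
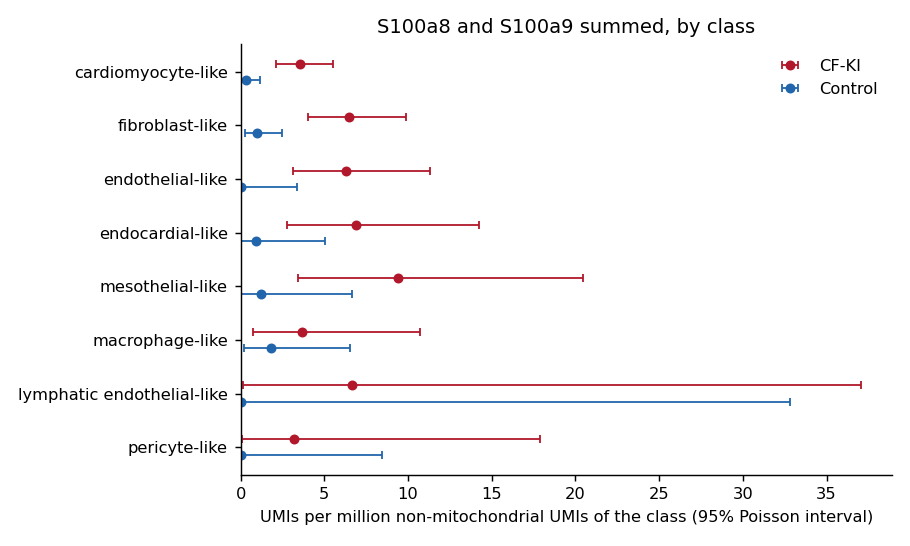
Points give the summed level of S100a8 and S100a9 (horizontal axis, CPM over the non-mitochondrial UMIs of the class) with 95% Poisson intervals, for 8 classes of nuclei in CF-KI (red) and Control (blue), without the barcodes that held 3 or more of the 7 genes. The CF-KI point lies to the right of the Control point in all 8 classes, and the intervals are apart in fibroblast-like (21 and 4 UMIs) and cardiomyocyte-like nuclei (19 and 2 UMIs) and overlap in the others.

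With the single barcode left out, the level of these 2 genes per UMI was lower in deeper barcodes of CF-KI. Their UMIs per 1000 barcodes stayed between 5.15 and 6.0. Barcodes with fewer than 1000 UMIs had 35 of the 85 UMIs in CF-KI, or 8.98 CPM and 5.51 UMIs per 1000 barcodes. Barcodes of 1000 to 1999 UMIs had 36, or 5.47 CPM and 6.0 per 1000. Barcodes of 2000 or more had 14, or 2.11 CPM and 5.15 per 1000. Control had 4, 3 and 4 UMIs in these ranges, or 0.866, 0.771 and 1.46 per 1000 barcodes. The log2 ratio was 2.86 (1.37 to 4.81), 3.20 (1.53 to 5.54) and 2.18 (0.50 to 4.24). Csf1r, a macrophage receptor gene, had 28.9, 37.8 and 77.6 UMIs per 1000 barcodes in these ranges of CF-KI and 72.3, 86.8 and 95.2 in Control. Per UMI it too was lower in deeper barcodes of CF-KI, at 47.2, 34.5 and 31.8 CPM.

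Barcodes were also split by mitochondrial share, since the libraries differed in it. Barcodes with at most 5% had 19 S100a8 and S100a9 UMIs in CF-KI and 9 in Control, 4.14 and 0.786 CPM, with a log2 ratio of 2.40 (1.18 to 3.72). Those with over 5 and up to 20% had 53 and 2 UMIs, with a log2 ratio of 3.76 (1.83 to 6.84). Those above 20% had 13 UMIs in 4517 CF-KI barcodes and 0 in 568 Control barcodes, too few in Control for a ratio. At the low share S100a9 had 13 and 3 UMIs, a ratio of 3.43 (1.57 to 5.89) on the log2 scale. S100a8 had 6 and 6 there, 1.32 (-0.58 to 3.22), so the summed ratio at that share rested mainly on S100a9.

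Haemoglobin RNA, a mark of red blood cells, was higher in CF-KI, as were the spread S100a8 and S100a9 UMIs. Hbb-bs had 1583, 3725 and 51346 UMIs per 1000 barcodes in the 3 depth ranges of CF-KI, with the erythroid-like barcodes kept in. The S100a8 and S100a9 values by depth leave out the single barcode, which had 3242 UMIs, 274 of them from the 2 genes. The relations to depth of Hbb-bs and of this pair are therefore not compared. Erythroid-like barcodes numbered 83 in CF-KI and 5 in Control. The 4 haemoglobin genes had 332283 UMIs in CF-KI and 49173 in Control, with a log2 ratio of 2.73, and Hbb-bs had a UMI in 9499 of 15077 and 2842 of 11257 barcodes. The 6 platelet markers had 1860 and 1141 UMIs, with a log2 ratio of 0.68, with 0 of the 6 at 0 UMIs in either library. Macrophage markers were lower in CF-KI, with 7226 and 11050 UMIs (log2 ratio -0.64), as were monocyte markers, with 5432 and 7097 (-0.41). Lists of other tissue cells differed in both directions. The log2 ratio was 0.84 for pericyte and 0.59 for endothelial markers, and -0.69 for fibroblast and -0.51 for adipocyte markers. The part of these lists in the S100a8 and S100a9 difference was not tested.

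Csf3r lay mainly in macrophage-like nuclei in both libraries. Without the barcodes of 3 or more members, these nuclei had 14 of its UMIs in CF-KI and 34 in Control, or 17.1 CPM (9.35 to 28.7) and 30.7 CPM (21.2 to 42.9). The log2 ratio within the class was -0.84 (-1.86 to 0.093), so the intervals overlapped. A Csf3r UMI was found in 2.32% of 518 macrophage-like nuclei of CF-KI and 2.75% of 982 of Control. Outside that class the shares were 0.0550% and 0.0973%, with median depths of 1114 and 1192.5 UMIs against 1178 and 905 inside it. All other barcodes together had 8 and 10 Csf3r UMIs. With the single barcode included, macrophage-like nuclei were 519 of 12681 clustered barcodes in CF-KI and 982 of 10858 in Control. Fewer nuclei of the class thus went with the lower Csf3r count of the library, and the part of this in the difference was not tested.

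At a finer clustering, the macrophage-like cluster led by F13a1 and Cd163 had 11 Csf3r UMIs in CF-KI and 29 in Control. The unnamed cluster led by Ccl5, Gzma and Nkg7 had 2 and 5. Without the barcodes of 3 or more members, Csf3r differed from S100a8 and S100a9 in its relation to depth. In CF-KI it had 0.629, 0.833 and 4.78 UMIs per 1000 barcodes in the 3 depth ranges, and in Control 4.98, 3.08 and 3.28. Its log2 ratio was -2.80 (-4.79 to -1.25) below 1000 UMIs and 0.90 (-0.44 to 2.31) at 2000 or more, so its sign differed between the ranges while the interval of the deeper one held 0, and this difference was not tested.

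Lcn2 was highest per UMI in lymphatic endothelial-like nuclei, a class led by Mmrn1, Ccl21a and Reln. In that class it had 13 UMIs in CF-KI and 17 in Control, or 86.5 CPM (46.1 to 148) and 151 CPM (88.1 to 242), with a log2 ratio of -0.81 (-1.97 to 0.32). A UMI was found in 8.33% of 156 nuclei (exact binomial interval 4.51 to 13.8) and in 12.0% of 100 (6.36 to 20), at median depths of 867.5 and 944 UMIs. In all other barcodes the shares were 0.302% and 0.179%, at median depths of 1119 and 1160. The class thus held 45.9% of the Lcn2 UMIs of Control and 19.7% of those of CF-KI.

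Outside lymphatic endothelial-like nuclei, Lcn2 had 48 UMIs in CF-KI and 20 in Control, or 2.83 CPM (2.09 to 3.75) and 1.20 CPM (0.732 to 1.85), with a log2 ratio of 1.24 (0.46 to 2.07). These UMIs were scattered. Fibroblast-like nuclei had 11 and 5, with a log2 ratio of 1.48 (-0.16 to 3.36), and cardiomyocyte-like nuclei 10 and 4, with a log2 ratio of 1.53 (-0.27 to 3.65), so neither class alone excluded 0. Barcodes with at most 5% mitochondrial UMIs had 4 Lcn2 UMIs in CF-KI and 24 in Control, with a log2 ratio of -1.27 (-3.25 to 0.27). Barcodes with 5 to 20% had 47 and 11, with a log2 ratio of 1.12 (0.16 to 2.22). Above 20% there were 10 and 2, a log2 ratio of -0.066 (-2.30 to 3.16). Lcn2 was thus higher in CF-KI, with an interval above 0, in the middle range alone, and the differences between the ranges were not tested.

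**Figure D4:**
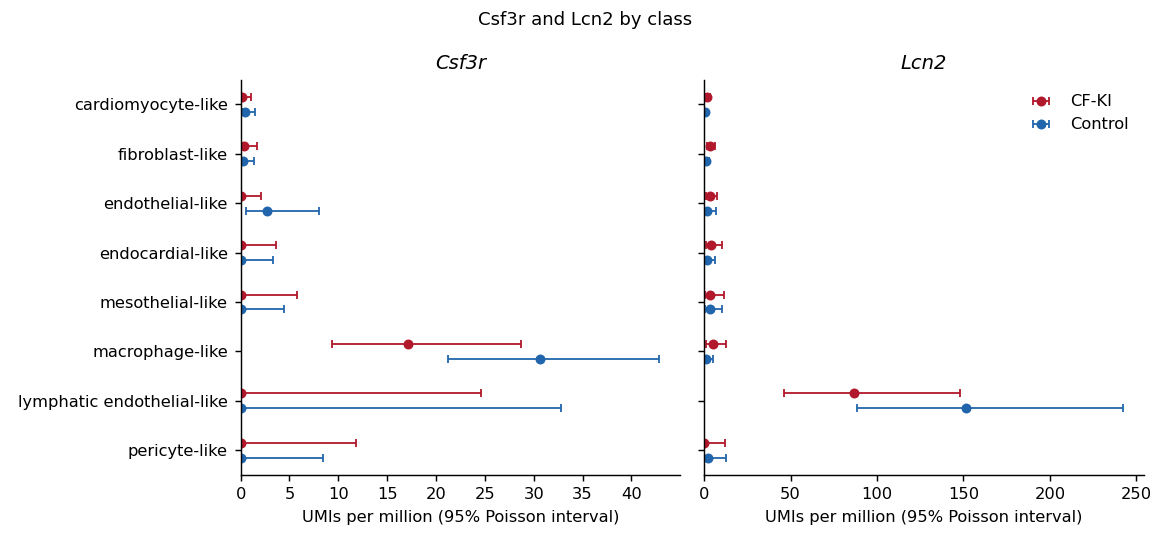
Points give the level of Csf3r (left) and Lcn2 (right) in CPM over the non-mitochondrial UMIs of the class (horizontal axes, which differ in range) with 95% Poisson intervals, for 8 classes in CF-KI (red) and Control (blue), without the barcodes that held 3 or more of the 7 genes. Csf3r stands out in macrophage-like nuclei (17.1 and 30.7) and Lcn2 in lymphatic endothelial-like nuclei (86.5 and 151), and in both classes the 2 libraries' intervals overlap.

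The other neutrophil genes had ratios in both directions. Of 43 listed, 42 were in the matrices, 20 had at least 10 UMIs over both libraries and 9 had 0 UMIs in both. Of the 20, 3 (15%) were at least 2-fold higher in CF-KI and 5 (25%) at least 2-fold lower, against 4.21% and 7.02% of all 17525 genes. Their median log2 ratio was -0.23, against -0.061 over all genes. Without the barcodes of 3 or more members, 2 of 19 were higher and 5 lower, against 4.19% and 7.04% of 17523 genes. The highest were Cxcr2, a chemokine receptor (11 and 1 UMIs, log2 ratio 3.43), Fpr2, a formyl peptide receptor (8 and 2, 1.97), Slpi, a protease inhibitor (180 and 60, 1.56), Clec4e, a lectin receptor (11 and 6, 0.85) and Mmp9 (21 and 12, 0.78). The intervals of Fpr2 (-0.35 to 5.25), Clec4e (-0.71 to 2.57) and Mmp9 (-0.31 to 1.94) held 0, and those of Cxcr2 (0.65 to 8.86) and Slpi (1.13 to 2.01) did not. Of the Cxcr2 UMIs, 5 of 11 lay in the single barcode, and of the Mmp9 UMIs 6 of 21. Slpi had 4 of its 180 UMIs there, so its difference did not rest on that barcode.

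The lowest were Ltf, lactoferrin (2 and 428 UMIs, log2 ratio -7.77), Cd177 (1 and 10, -3.35), Trem3 (4 and 14, -1.83), Chil3 (8 and 19, -1.27) and Hdc, histidine decarboxylase (68 and 138, -1.05). Of the Control UMIs, 325 of Ltf and 6 of Cd177 lay in airway epithelial-like nuclei, a class of 123 nuclei that was found in Control alone. The 6 airway epithelial markers had 51 UMIs in CF-KI, where 4 of them were at 0, and 26862 in Control. None of the UMIs of the 7 genes lay in those nuclei. The gene lists overlap with other cells: in CF-KI 12 of the 20 genes had more UMIs in macrophage-like nuclei than in any other class, and in Control 10 did. The single CF-KI barcode was kept in that class here. It held all 5 Cxcr2 UMIs of the class and 6 of its 11 Mmp9 UMIs.

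By granule stage, none of the 6 primary granule and precursor genes (Elane, Mpo, Prtn3, Ctsg, Ms4a3 and Cebpe) reached 10 UMIs. Of 8 later granule genes with enough UMIs, 0 were at least 2-fold higher and 3, among them Ltf and Cd177, at least 2-fold lower, against 4.21% and 7.02% of all genes. Without airway epithelial-like nuclei, 2 of 7 were lower, with Ltf at 2 and 103 UMIs and Cd177 under 10 UMIs in all. Of 7 surface receptor genes, 2 were higher and 1 lower, and without the barcodes of 3 or more members, 1 of 6 was higher and 1 lower. Of 5 other genes 1 was higher and 1 lower.

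**Figure D5:**
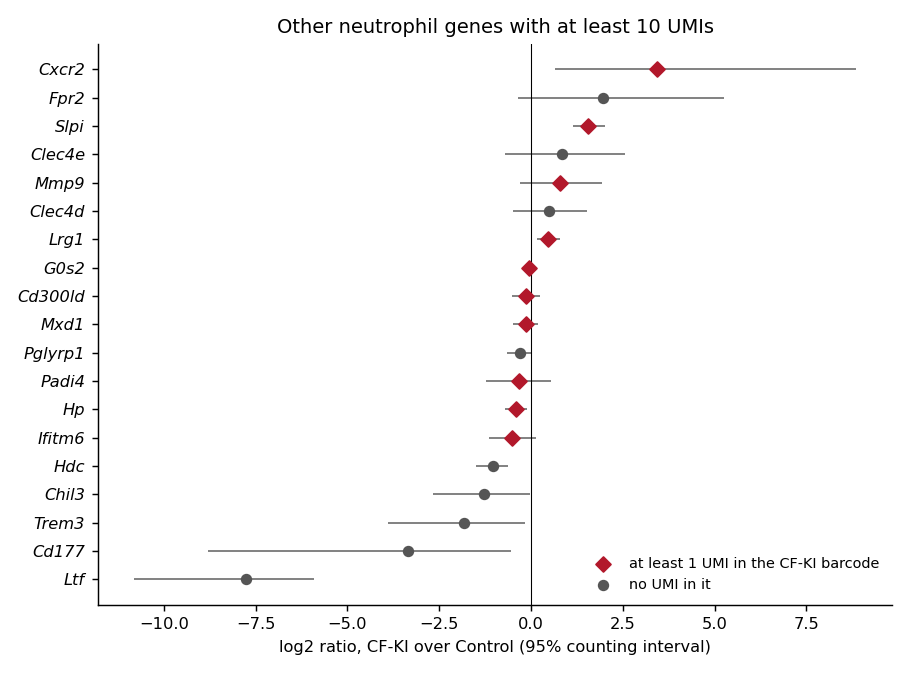
Points give the log2 ratio of CF-KI over Control (horizontal axis) with 95% counting intervals for the other neutrophil genes with at least 10 UMIs over both libraries, 1 of the 20 left out, with red diamonds for genes that had a UMI in the CF-KI barcode holding 5 of the 7 genes. The ratios run from -7.77 for Ltf to 3.43 for Cxcr2, and 7 lie above 0.

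Genes that draw neutrophils into tissue were counted beside them. Of 8 with at least 10 UMIs, 3 were at least 2-fold higher in CF-KI and 1 at least 2-fold lower, against 4.21% and 7.02% of all genes, with a median log2 ratio of 0.44 against -0.061. The chemokine gene Cxcl2 had 25 and 9 UMIs (log2 ratio 1.45, 0.30 to 2.73), Il1b 30 and 13 (1.18, 0.20 to 2.24) and the endothelial selectin gene Sele 35 and 17 (1.02, 0.14 to 1.94). Of the 25 Cxcl2 UMIs of CF-KI, 7 lay in 14 nuclei of an unnamed cluster led by Top2a and Mki67. Of the Il1b UMIs, 8 lay in the single barcode. Without the barcodes of 3 or more members Il1b had 22 and 12 UMIs with a log2 ratio of 0.85 and an interval that held 0, and 2 of the 8 genes were at least 2-fold higher. The neutrophil chemokine gene Cxcl1 had 165 and 95 UMIs (0.77, 0.40 to 1.15), of which 87 and 71 were in fibroblast-like nuclei. Cxcl5 (54 and 62 UMIs, -0.22), Selp (51 and 72, -0.52) and Icam1 (513 and 465, 0.12) had intervals that held 0, and Tnf had 10 and 20 UMIs (-1.03, -2.28 to 0.14). Csf3, the ligand of Csf3r, had 2 and 0 UMIs, and Cxcl3 and Il17a had 0 in both. The calprotectin receptor genes Tlr4 (490 and 506 UMIs, log2 ratio -0.072) and Ager, which encodes RAGE (10 and 21, -1.10), and the lipocalin 2 receptor gene Slc22a17 (389 and 328, 0.22) had no ratio of at least 2-fold except Ager, whose interval ran from -2.35 to 0.054.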

How the data were processed

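Single-nucleus RNA was measured with the 10x Genomics 3′ v3 chemistry, 1 library per genotype. The deposited files are matrices of unnormalised UMI counts, gene by barcode, which the authors made with Cell Ranger 6.1.1 and mm10, per the submitters' processing notes; the lowest total was 500 UMIs per barcode, and the cell-calling settings are not given in the sources used here. Features sharing a symbol were summed. Counts were scaled to the 17109877 (CF-KI) and 16808539 (Control) non-mitochondrial UMIs, so 3 UMIs, used as the floor, equal 0.175 and 0.178 CPM. Intervals are 95% exact Poisson, Clopper-Pearson or conditional binomial (scipy 1.17.1) and cover counting error only. No test between genotypes was possible.

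Barcodes with at least 200 genes were clustered after Scrublet doublet removal (scanpy 1.11.5, Leiden resolution 0.8, 2000 variable genes, 30 components), leaving the 7 genes and all other neutrophil genes out of the variable genes; 12681 CF-KI and 10858 Control barcodes remained. Clusters were named from at least 3 detected markers. The barcode counts expected from depth assume that each UMI falls on a barcode in proportion to its non-mitochondrial total.

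The named genes are all 7 members, the 5 highest and 5 lowest other neutrophil genes with at least 10 UMIs, those with at least 20% of their UMIs in barcodes with 3 or more members, the 10 genes per library with the largest such share, and recruitment and receptor genes with at least 20 UMIs. A gene that this rule names is not reported here. Csf1r, Hbb-bs, Csf3, Cxcl3, Il17a, the white blood cell genes of the single barcode and Ly6g were named after their values were seen. The members and lists were chosen with earlier results of these data known. Alternatives were other scalings (edgeR 4.0.16 TMM, DESeq2 1.42.0 size factors), mitochondrial and gene limits, barcode removal, thinning to 500 UMIs and other clusterings.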

Additional observations from a re-analysis of the deposited data

Results flagged for a closer look

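Lcn2 was higher in CF-KI in 2 classes and lower in another. Its log2 ratio of CF-KI over Control was 1.53 in cardiomyocyte-like nuclei and 1.48 in fibroblast-like nuclei, and -0.81 in lymphatic endothelial-like nuclei. The classes were set beside each other because their signs differ. With 1 library per genotype the difference between classes was not tested, and each of the 3 intervals held 0.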

How the results depend on the processing

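Of 127 alternative values for 26 results, 95 kept their direction and stayed within the counting interval or, for numbers of genes, within 1.5 times, 29 moved further and 3 changed sign. No paired analysis was possible because each genotype had 1 library. With at most 5% mitochondrial UMIs, a limit that removes the single CF-KI barcode, the log2 ratio was 1.10 for S100a8, 3.02 for S100a9, -2.27 for Csf3r, -1.27 for Lcn2 and -0.15 for the 7 genes summed, and the share of CF-KI member UMIs in barcodes with 3 or more members and the number of such barcodes per 10000 both became 0, from 64.5% and 0.663. With at most 20% it was 1.81 for S100a8, 3.71 for S100a9 and 0.79 summed. With at least 500 genes per barcode it was 0.033 for Csf3r and 2.75 summed. Without barcodes holding 3 or more members it was 1.93 for S100a8, 4.14 for S100a9 and 0.82 summed, and without those holding 3 or more other neutrophil genes 2.02 for S100a8 and 0.90 summed. Thinned to 500 UMIs per barcode it was 2.76 for S100a8, 3.92 for S100a9, 2.39 for Retnlg, -2.09 for Csf3r and 1.07 summed. The sum was 0.51 without S100a8 and S100a9 and 3.06 without Csf3r.

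In Control, the share of member UMIs was 13% in barcodes with at least 2 members and 0% with at least 4, against 4% with 3, and the number of such barcodes per 10000 was 0, from 0.888, with at least 4 members or after thinning. Of the other neutrophil genes, with a minimum of 50 UMIs 1 of 11 was at least 2-fold higher and 2 lower. Without airway epithelial-like nuclei 3 of 19 were lower. The shares over all genes are not given at these settings, so nothing is read from these counts. For Retnlg, mitochondrial limits and removal of the barcodes left at most 3 UMIs in each library and gave no value. The removal of airway epithelial-like and lymphatic endothelial-like nuclei, the removal of the barcodes of 3 or more members from the gene lists, and the class levels with the single barcode kept, were chosen after seeing the data. Counts of 0 to 9 UMIs in Control limit every ratio of S100a8, S100a9 and Retnlg. For the other changes of value the cause was not tested.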
